A study of Mus musculus with 2 samples.

Results

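Fibroblast growth factor (FGF) signalling was described in fetal mouse lung through 10 genes out of 32285 gene features. They comprised the ligand genes Fgf10, Fgf7 and Fgf18, the receptor genes Fgfr1, Fgfr2, Fgfr3 and Fgfr4, the feedback inhibitor genes Spry1 and Spry2, and the transcription factor gene Etv5. These members were taken by name, and the other 80 genes of the pathway were counted from lists. Ligand-producing and receptor-bearing nuclei were found with marker genes that held none of the 10 members.

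The nuclei came from wild type fetuses on gestation day 18, and the RNA and the accessible chromatin of each nucleus were read together. The PBS library held lungs of 9 pooled fetuses whose mother received alum in PBS and then intranasal PBS. The OVA library held lungs of 8 pooled fetuses whose mother was sensitized with 100 µg ovalbumin (OVA) in alum and given 500 µg OVA by the nose at intervals of a few days, first on gestation day 4 and last on day 17, a model of asthma in pregnancy. The suspension was a mix of sorted fractions, which the study's methods give as EpCAM+ epithelium, CD45+ leukocytes and type 2 innate lymphocytes (ILC2). There was 1 library per group, each from a single dam per the study, so dam, pool, library and treatment cannot be told apart. No p-value is given, each interval is a 95% interval that covers counting error only, and differences between the libraries compare these libraries and not the conditions.

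In the developing lung, FGF10 and FGF7 are made by the mesenchyme and act on FGFR2 of the epithelium, where they drive branching, growth and the maintenance of distal progenitors. The signal runs through RAS and the MAP kinases to ETS factors such as ETV5, and Sprouty proteins, themselves targets of the pathway, dampen it. FGF18 acts mainly on FGFR3 and FGFR4 in mesenchyme and is linked to alveolar septum formation.

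The PBS library had 8019 barcodes and 11473351 gene UMIs (unique molecular identifiers), and the OVA library had 5960 barcodes and 13774959 gene UMIs. Mitochondrial genes took 45.2% and 29.2% of these UMIs. After filters 4572 and 5246 nuclei were kept, of which 1645 (36.0%) and 2423 (46.2%) carried the markers of 1 cell type. Gated nuclei had a median of 847 and 1510 nuclear-gene UMIs, so the OVA library was the deeper one. The libraries shared 54 barcode sequences, 32 of them kept in both. A total of 7 types reached 50 nuclei per library and are called by their markers: 483 and 304 alveolar type 2 (AT2)-like, 203 and 285 alveolar type 1 (AT1)-like, 346 and 801 fibroblast-like, 56 and 96 myofibroblast-like, 90 and 135 pericyte-like, 190 and 266 macrophage-like and 146 and 310 ILC2-like nuclei. The study's methods name no fibroblast gate for fetal lung, whereas its results also name sorted fibroblasts at the fetal stage. How stromal nuclei entered the libraries is thus not settled by the sources used here. Shares of types could be set by the sort and are not compared. In each of the compared types 8 to 12 of its 12 gating markers were found in at least 5% of the nuclei. A level below is UMIs per 1000000 nuclear-gene UMIs (CPM) summed over the nuclei of a type, given first for PBS and then for OVA.

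The start regions of 4 members are shown as examples that differed in accessibility, each wholly inside a peak of both libraries. The windows of Fgf18 and Fgfr4 and the first of Etv5 also lay inside such peaks and are not printed. Peaks over the starts of Fgf10 and Fgf7 were open in fibroblast-like nuclei and nearly closed in AT2-like nuclei, whereas those of Fgfr3 and Spry1 were open in both. Each sequence is the 250 bases upstream of the RefSeq start on GRCm38.p6, 5′ to 3′ on the strand of the gene, with CpG dinucleotides in capitals. They are Fgf10 at chr13:118714449-118714698 (plus strand), Fgf7 at chr2:126034408-126034657 (plus strand), Fgfr3 at chr5:33721474-33721723 (plus strand) and Spry1 at chr3:37639697-37639946 (plus strand).
Fgf10: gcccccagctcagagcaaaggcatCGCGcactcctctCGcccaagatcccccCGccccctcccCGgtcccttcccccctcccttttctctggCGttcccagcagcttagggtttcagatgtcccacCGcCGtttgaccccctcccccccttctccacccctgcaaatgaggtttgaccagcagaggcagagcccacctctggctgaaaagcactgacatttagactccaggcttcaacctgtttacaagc
Fgf7: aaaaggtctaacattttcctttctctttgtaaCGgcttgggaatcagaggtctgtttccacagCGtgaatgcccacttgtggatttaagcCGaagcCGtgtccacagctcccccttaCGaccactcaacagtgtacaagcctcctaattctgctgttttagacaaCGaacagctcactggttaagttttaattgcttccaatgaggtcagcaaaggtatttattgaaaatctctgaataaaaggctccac
Fgfr3: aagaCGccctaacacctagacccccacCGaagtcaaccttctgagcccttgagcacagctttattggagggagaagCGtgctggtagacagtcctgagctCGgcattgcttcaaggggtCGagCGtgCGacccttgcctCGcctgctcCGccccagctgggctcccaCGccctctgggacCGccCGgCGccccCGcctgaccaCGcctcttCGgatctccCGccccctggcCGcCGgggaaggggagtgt
Spry1: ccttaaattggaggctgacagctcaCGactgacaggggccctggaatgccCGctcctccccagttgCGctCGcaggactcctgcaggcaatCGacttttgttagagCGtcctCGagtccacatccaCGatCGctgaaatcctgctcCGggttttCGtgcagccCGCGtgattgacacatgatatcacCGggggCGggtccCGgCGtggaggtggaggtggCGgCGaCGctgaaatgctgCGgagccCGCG
Fgf10 held 8 CpGs and Fgf7 held 6, close to the median of 6 over 32841 mouse promoters of this length, whereas Fgfr3 held 19 and Spry1 held 23, more than 80.3% and 86.7% of them. These 4 windows were picked, and CpG counts did not split ligands from other members. The window of the ligand Fgf18 held 37 CpGs (more than 97.8% of promoters). The Fgfr2 window held 2 (more than 18.8%), but it lay outside the Fgfr2 start peak in both libraries and is no count for that peak. RefSeq sequences matched 9 of the 10 members. The GC box GGGCGG, searched on both strands, occurred 3 times in Fgfr3 and once each in Fgf10 and Spry1, and 32.75% of all promoters held it. The ETS core CCGGAA, also searched on both strands, was in none of these 4 windows and occurred once in that of Fgfr4, and 12.03% of all promoters held it. A match of letters says nothing of binding.

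Fgf10, the main mesenchymal ligand of distal lung epithelium, was found among gated nuclei almost only in fibroblast-like ones. There were 158 and 614 Fgf10 UMIs in them, 94.6% and 97.6% of all Fgf10 UMIs of gated nuclei. The PBS level was 337 CPM (interval 286 to 393) and the OVA level 348 CPM (321 to 377). In AT2-like nuclei there were 5 UMIs in the PBS library (8.64 CPM) and none in the OVA library, which allows up to 4.56 CPM when 3 counts are set as the limit. Over fibroblast-like and myofibroblast-like nuclei together, Fgf10 was 50.5-fold (21.2 to 158) higher than over AT2-like and AT1-like nuclei in the PBS library, on 160 against 5 UMIs. In the OVA library 615 UMIs stood against 1, a ratio of 380.1-fold whose interval ran from 68.0 to 15036. On the log2 scale these were 5.66 and 8.57, and over all alternatives they ran from 3.96 to 6.48 and from 4.40 to 9.31. The lowest came with nuclei kept that carried markers of 2 compartments, an alternative added after the data were seen. Fibroblast-like nuclei stood clear of the next type in both libraries, and the types below them did not differ from their neighbours beyond counting error. The small counts elsewhere included 9 UMIs in ILC2-like nuclei of the OVA library (23.1 CPM), against none in the PBS library. Gated nuclei held 167 of 353 (PBS) and 629 of 862 (OVA) Fgf10 UMIs of all kept nuclei. With named clusters in place of gates, myofibroblast-like nuclei had 37.0 CPM (21.5 to 59.2) and 24.9 CPM (14.2 to 40.4), on 17 and 16 UMIs. An unnamed cluster led by Ptn, Cdh18 and Prss35 had 141 and 156 CPM, against 274 and 326 CPM in fibroblast-like clusters.

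Fgf7, whose product is a keratinocyte growth factor for the same epithelial receptor isoform, was shared between fibroblast-like and myofibroblast-like nuclei. Fibroblast-like nuclei held 35 and 101 UMIs, at 74.6 CPM (51.9 to 104) and 57.3 CPM (46.7 to 69.6). Myofibroblast-like nuclei held only 4 and 6 UMIs, at 59.8 CPM (16.3 to 153) and 33.5 CPM (12.3 to 73.0), within counting error of the fibroblast-like level. When all kept nuclei were clustered in place of gating, the larger myofibroblast-like cluster of 494 and 405 nuclei had 63.1 and 97.9 CPM on 29 and 63 UMIs. AT2-like nuclei had 3 Fgf7 UMIs in each library, and pericyte-like nuclei had 1 and none. ILC2-like nuclei had 3 in each library (29.0 and 7.69 CPM), within counting error of myofibroblast-like nuclei.

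Fgf18 was sparse, with 20 and 34 UMIs in all gated nuclei. Its level was highest in myofibroblast-like nuclei, at 44.8 CPM (9.25 to 131) on 3 UMIs and 50.3 CPM (23.0 to 95.5) on 9 UMIs, and no neighbours in its order differed beyond counting error. The myofibroblast-like cluster held 27 UMIs in each library, at 58.7 CPM (38.7 to 85.4) and 41.9 CPM (27.6 to 61.0). AT1-like clusters had 27.0 CPM (13.9 to 47.2) on 12 UMIs and 11.04 CPM (5.05 to 20.9) on 9 UMIs, the pericyte-like cluster had none and 13.6 CPM (2.80 to 39.7) on 3 UMIs, and fibroblast-like clusters had none and 3.81 CPM. By level, Fgf10 was thus highest in fibroblast-like and Fgf18 in myofibroblast-like nuclei.

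**Figure D1:**
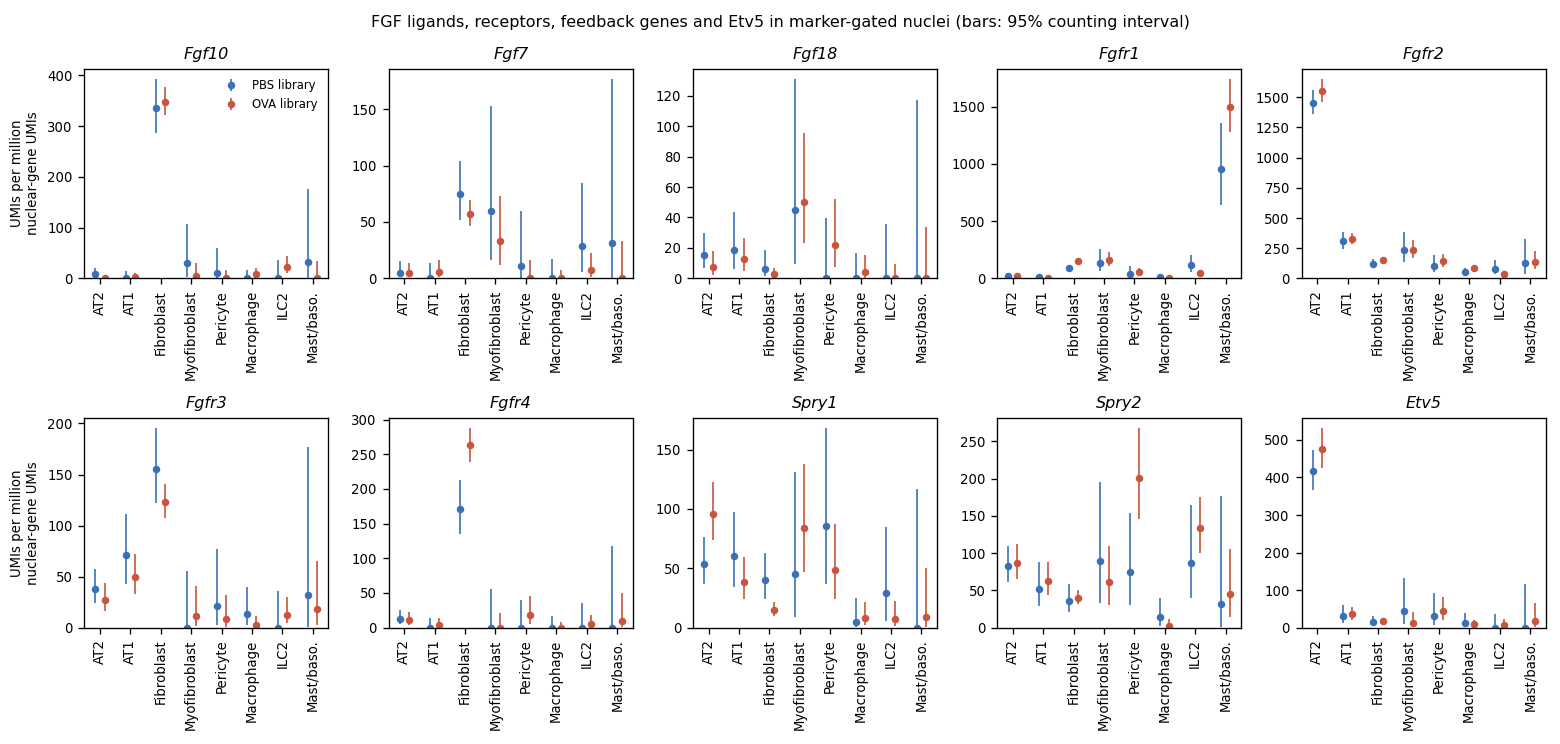
Level of each of the 10 genes in 8 marker-gated types, in UMIs per 1000000 nuclear-gene UMIs on linear axes that differ between panels, with blue points for the PBS library, red points for the OVA library and bars for exact 95% counting intervals. Fgf10 and Fgfr4 stood out in fibroblasts (337 and 348 CPM for Fgf10), Fgfr2 and Etv5 in AT2 nuclei, and Fgfr1 in the mast cell or basophil gate.

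Fgfr2, the receptor of FGF10 and FGF7, marked the alveolar epithelium and above all AT2-like nuclei. These held 843 and 1023 Fgfr2 UMIs, at 1457 CPM (1360 to 1558) and 1556 CPM (1462 to 1654). AT1-like nuclei followed with 307 CPM (244 to 381) and 328 CPM (282 to 380), so AT2-like nuclei were 4.74-fold higher in both libraries (3.77 to 6.02 and 4.04 to 5.59). Myofibroblast-like nuclei had 239 CPM (137 to 388) and 235 CPM (169 to 317), which was within counting error of AT1-like nuclei in both libraries but above fibroblast-like nuclei in both. With named clusters in place of gates AT1-like nuclei were clear of them. There AT1-like nuclei had 475 CPM (413 to 543) and 548 CPM (499 to 601), and myofibroblast-like nuclei 241 CPM (199 to 291) and 278 CPM (239 to 322). The AT2-like cluster had 1687 and 1790 CPM, so it was less far above AT1-like nuclei than under the gates. Fibroblast-like nuclei had 121 CPM (92.0 to 157) and 149 CPM (131 to 168). The epithelial types together were 8.04-fold (6.33 to 10.3) and 6.39-fold (5.63 to 7.27) above the fibroblast-like and myofibroblast-like nuclei together. Macrophage-like nuclei had 50.1 CPM (25.0 to 89.6) and 83.8 CPM (59.8 to 114). Pericyte-like and ILC2-like levels overlapped that range in the PBS library. In the OVA library pericyte-like nuclei lay above it, at 142 CPM (97.3 to 201), and ILC2-like nuclei below it, at 38.4 CPM (21.5 to 63.4), by ratios beyond counting error. Whether such low levels are expression or free RNA was not tested. With every nucleus thinned to 500 UMIs, 48.1% (PBS) and 48.0% (OVA) of AT2-like nuclei had an Fgfr2 UMI, against 2.4% and 5.7% of macrophage-like nuclei. Before thinning, which left out 94 and 23 shallower AT2-like nuclei, these shares were 62.5% and 77.6% against 5.8% and 12.8%, with a median depth of 856 and 1469.5 UMIs in AT2-like and 949 and 1578.5 UMIs in macrophage-like nuclei. The annotated gene model of Fgfr2 includes a transcript that begins 2857 kb upstream of the other starts, across 35 genes on the same strand, and reads between those genes could have been counted as Fgfr2.

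Fgfr1, a receptor broadly used by mesenchyme, was low in the alveolar epithelium. Myofibroblast-like nuclei had 135 CPM (61.5 to 255) and 162 CPM (109 to 233), and fibroblast-like nuclei had 89.5 CPM (64.5 to 121) and 153 CPM (135 to 173), on 42 and 270 UMIs. AT2-like nuclei had 22.5 and 22.8 CPM, and AT1-like nuclei 14.99 and 7.38 CPM. The stromal types together were 4.73-fold (2.69 to 8.74) and 9.73-fold (6.12 to 16.4) above the epithelial types, the reverse of Fgfr2. On the log2 scale these were 2.24 and 3.28, and they ran from 1.53 with mixed nuclei kept to 3.27 with named clusters for PBS and from 2.54 to 3.57, with the same settings, for OVA. In the PBS library ILC2-like nuclei, at 116 CPM (59.9 to 202) on 12 UMIs, were within counting error of either stromal type. In the OVA library they had 46.1 CPM (27.3 to 72.9) on 18 UMIs.

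Outside the 7 compared types, Fgfr1 had its highest level in nuclei of the mast cell or basophil gate. This gate held 49 PBS nuclei, 1 short of the minimum, and 99 OVA nuclei, and was looked at after its values had been seen. Fgfr1 reached 952 CPM (643 to 1359) on 30 UMIs and 1496 CPM (1276 to 1742) on 165 UMIs, 4.35 and 4.22 on the log2 scale above all other gated nuclei. After thinning to 500 UMIs, an Fgfr1 UMI was found in 5 of 27 nuclei (18.5%, interval 6.3% to 38.1%) for PBS and in 37 of 79 (46.8%, 35.5% to 58.4%) for OVA, against 0.6% and 0.8% of macrophage-like nuclei. The gate had a median depth of 544 and 836 UMIs and unthinned shares of 34.7% and 63.6%, and thinning left out 22 and 20 of its nuclei. The genes that led this gate beside its markers were Cma1, Rab44 and Prkcb in the PBS library and Atp8a2, Gzmb and Tpsab1 in the OVA library. Cma1 and Tpsab1 encode mast cell proteases. A cluster of 59 and 114 nuclei that was formed without the pathway genes, led by Cyp11a1, Hdc and Mcpt8, had 790.3 and 1454 CPM of Fgfr1.

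Fgfr3 and Fgfr4, the other receptors, were both highest in fibroblast-like nuclei. Fgfr4 had 80 and 463 UMIs there, at 170.5 CPM (135 to 212) and 263 CPM (239 to 288), which was 90.9% and 96.7% of all its UMIs in gated nuclei. In myofibroblast-like nuclei Fgfr4 had no UMI in either library, which at the same limit of 3 counts allows up to 44.8 and 16.8 CPM, and AT2-like nuclei had 7 UMIs in each library, at 12.1 and 10.6 CPM. Stromal types together were 18.0-fold (8.35 to 46.3) and 31.8-fold (16.6 to 70.0) above epithelial types, or 4.17 and 4.99 on the log2 scale. For PBS this ran from 3.17 with mixed nuclei kept to 5.39 with named clusters, with 3.47 for the lenient gate, and for OVA from 3.59 with mixed nuclei kept to 5.07. Fgfr3 had 73 and 217 UMIs in fibroblast-like nuclei, at 156 CPM (122 to 196) and 123 CPM (107 to 141). AT1-like nuclei were next for Fgfr3, with 71.2 CPM (42.9 to 111) and 49.8 CPM (32.8 to 72.5), above AT2-like nuclei at 38.0 and 27.4 CPM but with intervals of that ratio that reached equality. The ligand Fgf10 and the receptors Fgfr3 and Fgfr4 were thus highest in the same type, whereas myofibroblast-like nuclei had none and 2 Fgfr3 UMIs. In thinned fibroblast-like nuclei, 2 of 310 PBS nuclei and 17 of 795 OVA nuclei held UMIs of both Fgf10 and Fgfr4, where 4.18 and 13.7 would be found if the UMIs were spread independently.

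Etv5, an ETS factor induced by FGF signalling, followed the receptor of the epithelium. AT2-like nuclei held 241 and 313 UMIs, at 416 CPM (366 to 472) and 476 CPM (425 to 532). AT1-like nuclei had 29.98 and 35.05 CPM on 8 and 19 UMIs, so AT2-like nuclei were 13.9-fold (6.94 to 32.5) and 13.6-fold (8.55 to 22.9) higher. Named clusters put that ratio lower, at 4.64-fold and 6.48-fold, since AT1-like clusters there reached 104 and 89.5 CPM. After thinning, 18.3% and 22.8% of AT2-like nuclei had an Etv5 UMI (30.4% and 49.7% before), against 1.2% and 1.5% of macrophage-like nuclei (1.6% and 1.5% before). UMIs of both Fgfr2 and Etv5 were found in 46 of 389 thinned PBS and 42 of 281 thinned OVA nuclei of the AT2-like gate. If the UMIs were spread independently, 34.1 and 30.7 would be found. For Fgfr2 and Spry2 the counts were 8 and 4, where 5.29 and 4.80 would be found. The AT2-like cluster gave 81.4% and 84.2% of the gate, and the part of the other clusters in these counts was not tested.

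Spry1 and Spry2, which encode Sprouty inhibitors of the pathway, were spread over many types. Spry2 was found in AT2-like nuclei at 82.9 CPM (61.2 to 110) and 86.7 CPM (65.7 to 112), on 48 and 57 UMIs. In ILC2-like nuclei it had 86.9 CPM (39.8 to 165) and 133 CPM (99.5 to 175), and in pericyte-like nuclei 74.7 CPM (30.04 to 154) and 200.1 CPM (146 to 268). Macrophage-like nuclei had 3 UMIs and 1 UMI of Spry2. No neighbours in the Spry2 order differed beyond counting error for PBS, whereas for OVA ILC2-like nuclei lay above AT2-like nuclei and fibroblast-like nuclei above macrophage-like nuclei. Spry1 was highest in pericyte-like nuclei of the PBS library (85.4 CPM, 36.9 to 168) and in AT2-like nuclei of the OVA library (95.8 CPM, 73.6 to 123). Neither stood clear of the next type, at log2 of 0.51 (-0.92 to 1.82) over AT1-like and 0.19 (-0.64 to 1.11) over myofibroblast-like nuclei. The lowest Spry1 levels were 4.55 CPM in macrophage-like nuclei (PBS, 1 UMI) and 7.69 CPM in ILC2-like nuclei (OVA, 3 UMIs).

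**Figure D2:**
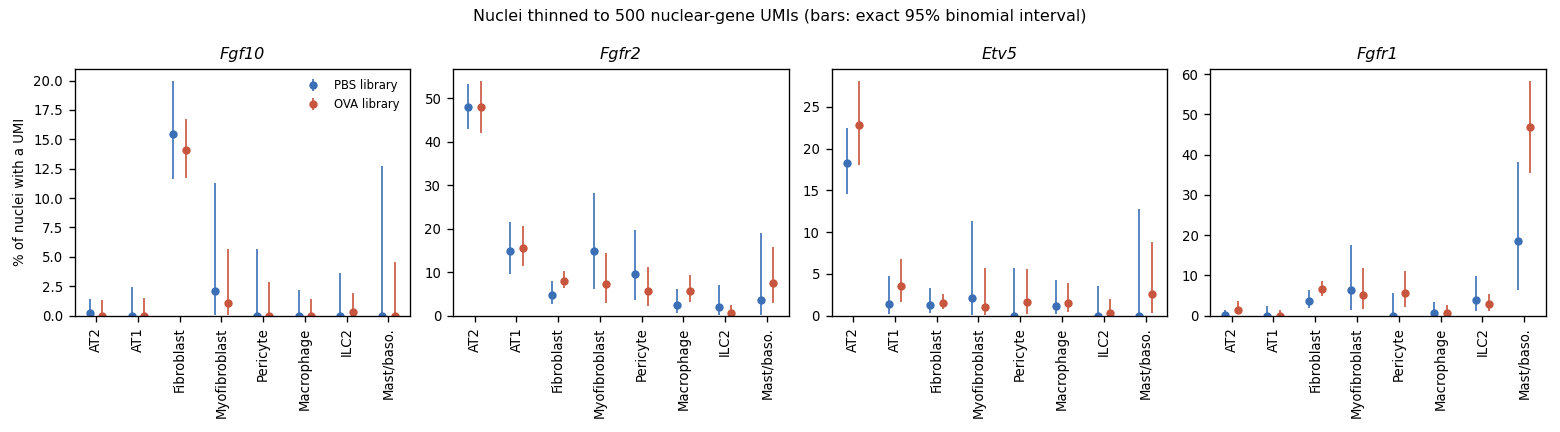
Percent of nuclei of each type with at least 1 UMI of Fgf10, Fgfr2, Etv5 or Fgfr1 after every nucleus had been thinned to 500 nuclear-gene UMIs, with blue points for PBS, red points for OVA and bars for exact 95% binomial intervals. Fgfr2 was found in 48.1% and 48.0% of AT2 nuclei, and Fgfr1 in 18.5% and 46.8% of the mast cell or basophil gate.

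The members were also set beside all genes, type by type. A gene was called for a type if it was at least 2-fold above the other gated nuclei with an interval above equality in both libraries, and 8 members had the 50 UMIs per library that this needs (Fgf7 and Fgf18 did not). In fibroblast-like nuclei 3 of 8 were called, Fgf10, Fgfr4 and Fgfr3, against 8.28% of all genes. In AT2-like nuclei 2 of 8 were called, Etv5 and Fgfr2, against 6.41%, and in the mast cell or basophil gate 1 of 8, Fgfr1, against 4.18%. None was called in AT1-like, myofibroblast-like, pericyte-like, macrophage-like or ILC2-like nuclei, where 8.12%, 4.43%, 4.94%, 10.9% and 6.78% of all genes were. With 8 members judged, no call is a common outcome at such shares. The members and markers were chosen with earlier results of these data known, so these counts are a description.

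Of the other 80 pathway genes, 44 could be judged by the same rule. In AT2-like, AT1-like, fibroblast-like and myofibroblast-like nuclei 3, 6, 3 and 4 were called, beside 6.41%, 8.12%, 8.28% and 4.43% of all genes. In pericyte-like, macrophage-like and ILC2-like nuclei 6, 5 and 3 were called, beside 4.94%, 10.9% and 6.78%. The mast cell or basophil gate had 4, beside 4.18%. Counts this small are given as a description. In AT2-like nuclei the called genes were Sdc1 and Sdc4, heparan sulphate carriers of the cell surface, and the small GTPase gene Hras. Their log2 differences were 2.30 and 3.43, 2.16 and 2.64, and 1.06 and 1.05. The 3 most distinct in AT1-like nuclei were Flrt3 (3.23 and 3.85), which encodes a membrane protein that binds FGF receptors, the ligand gene Fgf1 (3.14 and 4.19) and Hspg2 (3.05 and 3.43), which encodes the basement membrane proteoglycan perlecan. In fibroblast-like nuclei they were the Sprouty gene Spry4 (2.26 and 2.35), the ETS factor gene Etv1 (2.09 and 2.31) and the glypican gene Gpc3 (2.08 and 2.30). In myofibroblast-like nuclei the first 3 were Gpc6 (2.16 and 2.24), Etv1 (2.21 and 1.95) and Sdc2 (1.93 and 1.70). Of the feedback and target genes, Etv5 was thus called in AT2-like nuclei, Dusp5 in pericyte-like and ILC2-like nuclei, Spry4 in fibroblast-like and pericyte-like nuclei and Etv1 in fibroblast-like and myofibroblast-like nuclei.

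Chromatin accessibility was a second readout of the same nuclei. In the members' bodies and 2 kb upstream, 44 peaks of the PBS library had 1 partner in the OVA library, and 10 of them covered a coding start. A peak was called when its interval of AT2-like over fibroblast-like accessibility, in transposition counts scaled to 1000000 counts in peaks (peak CPM), left out equality in the same direction in both libraries. Of the 10 start peaks, none was higher in AT2-like nuclei and 2 were higher in fibroblast-like nuclei, against 12.9% and 10.4% of 14057 such start peaks of all genes. Of the 34 other peaks, 7 were higher in AT2-like nuclei and 11 in fibroblast-like nuclei, against 13.3% and 15.2% of 87849 peaks. These 44 peaks lie in 10 genes and are not independent.

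The start peaks called were those of the ligands Fgf10 and Fgf7. The Fgf10 start peak had 20 and 78 counts in fibroblast-like nuclei, and 1 count and none in AT2-like nuclei. Over fibroblast-like and myofibroblast-like nuclei against epithelial nuclei it had 20 counts against 1 and 81 against 0, at least 15.7-fold lower in the epithelium of the OVA library when 3 counts are set as the limit. The Fgf7 start peak had 25 and 63 counts in fibroblast-like nuclei (11.97 and 10.7 peak CPM) against 4 and 2 in AT2-like nuclei. The start peak of the third ligand, Fgf18, differed in opposite directions, with a log2 of AT2-like over fibroblast-like of 0.87 (0.31 to 1.47) for PBS and -0.83 (-1.36 to -0.33) for OVA. Both further Fgf7 peaks, in introns 4.6 and 26.0 kb downstream, were also higher in fibroblast-like nuclei in both libraries.

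At the receptor genes the starts were open in both types, and peaks inside the genes differed. The Fgfr2 start peak had 31.8 and 30.4 peak CPM in AT2-like nuclei and 39.3 and 36.3 in fibroblast-like nuclei, at a log2 of AT2-like over fibroblast-like of -0.30 (-0.69 to 0.09) and -0.26 (-0.63 to 0.11), although the Fgfr2 RNA was 11.99-fold and 10.5-fold higher in AT2-like nuclei. A total of 3 intronic Fgfr2 peaks were higher in AT2-like nuclei, 28.7, 46.1 and 59.7 kb from the start. The middle one, at chr7:130219598-130220527 on mm10, had 80 and 55 counts in AT2-like nuclei against 0 and 3 in fibroblast-like nuclei. A further intronic peak 50.4 kb from the start, at chr7:130215378-130216280, went the other way, with 24 and 13 counts in AT2-like and 58 and 165 in fibroblast-like nuclei (log2 of -2.66 and -2.64). AT2-like and fibroblast-like nuclei therefore differed at separate intronic peaks of the same receptor gene. Summed over all peaks of the gene body and 2 kb upstream, epithelial over stromal accessibility of Fgfr2 was 0.44 (0.21 to 0.67) and -0.01 (-0.21 to 0.19) on the log2 scale. At the start alone the PBS ratio was -0.32 (-0.67 to 0.04), and it passed equality in the other direction with the lenient gate (-0.46, -0.73 to -0.19) and with named clusters (-0.40, -0.66 to -0.15).

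Fgfr4 and Fgfr3 showed the same layout for fibroblast-like nuclei. The Fgfr4 start peak did not differ beyond counting error between AT2-like and fibroblast-like nuclei, at log2 of 0.41 (-0.16 to 1.02) and -0.20 (-0.71 to 0.29). Its intronic peak 11.1 kb downstream, at chr13:55163267-55164134, had 45 and 139 counts in fibroblast-like nuclei against 6 and 6 in AT2-like nuclei (log2 of -4.29 and -3.51). Myofibroblast-like nuclei had 1 count and none at this Fgfr4 peak, and pericyte-like nuclei none and 4. The Fgfr3 start peak had 39.0 and 27.9 peak CPM in AT2-like and 39.3 and 38.7 in fibroblast-like nuclei, and in the OVA library that difference passed counting error (log2 of -0.47, -0.85 to -0.10). Its intronic peak 4.0 kb downstream differed far more, at 2.56 and 1.72 peak CPM in AT2-like against 19.6 and 28.0 in fibroblast-like nuclei. Myofibroblast-like nuclei had no count at this Fgfr3 peak in either library, and pericyte-like nuclei had 2 and 6 counts. At Fgfr1, 3 intronic peaks were higher in fibroblast-like nuclei and 1, 12.8 kb downstream, was higher in AT2-like nuclei.

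At Etv5 the larger of its start peaks was open in both types, with 101 and 83.5 peak CPM in AT2-like and 99.6 and 101 in fibroblast-like nuclei (log2 of 0.02, -0.21 to 0.26, and -0.27, -0.49 to -0.05). An intronic peak 1.7 kb downstream, at chr16:22434296-22435333, had 71 and 48 counts in AT2-like nuclei against 2 and 6 in fibroblast-like nuclei. A peak 1.8 kb upstream, at chr16:22441184-22441925, had 90 and 51 counts against 3 and 6, or log2 of 3.52 (1.93 to 5.82) and 4.11 (2.89 to 5.62). AT1-like nuclei had 7.64 and 3.99 peak CPM at the upstream peak, below the 16.5 and 17.6 of AT2-like nuclei. An intronic peak of Fgf18, 3.8 kb downstream, was open in epithelium, with 14.8 and 21.4 peak CPM in AT2-like and 44.9 and 63.8 in AT1-like nuclei against 0.957 and 1.19 in fibroblast-like nuclei.

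**Figure D3:**
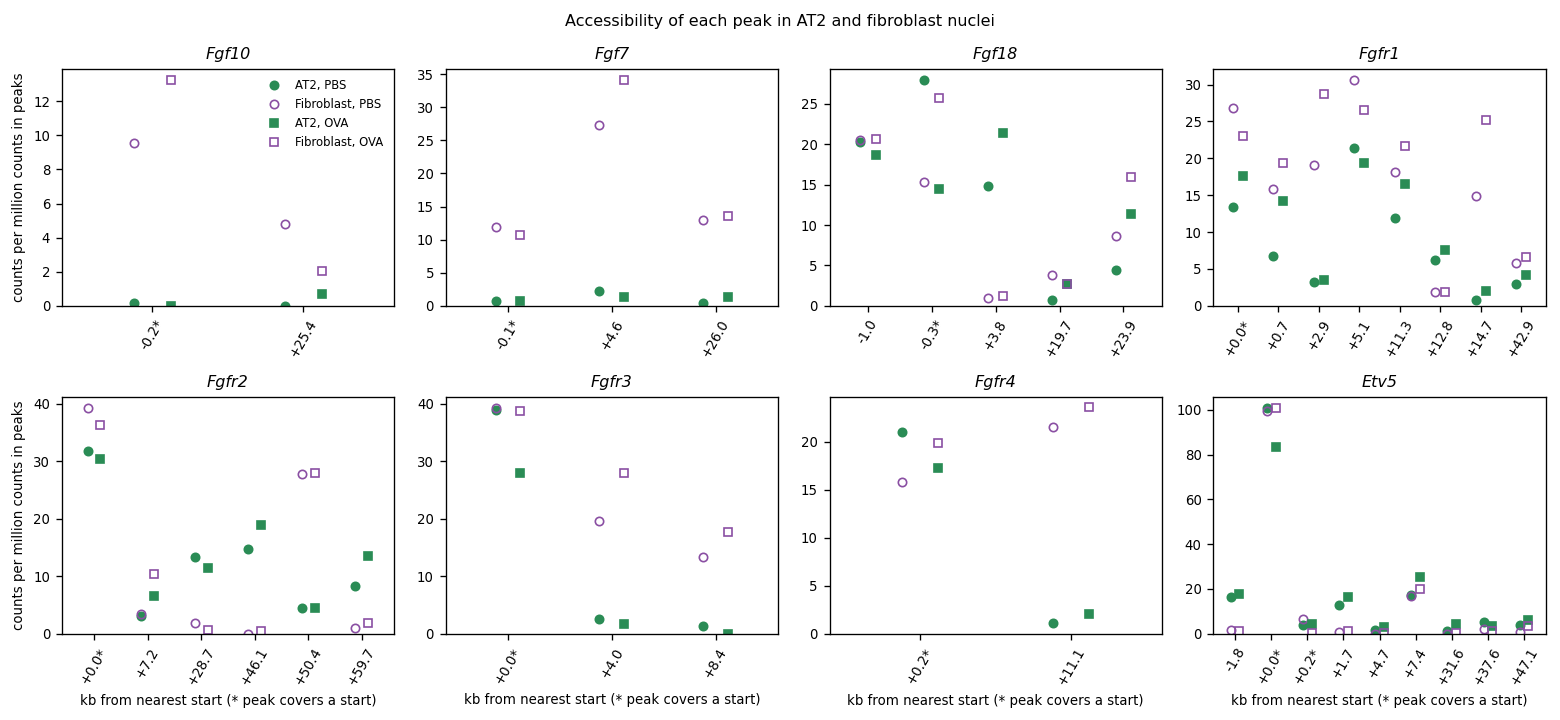
Accessibility of each peak paired between the libraries, in peak CPM, in AT2 nuclei (filled green) and fibroblasts (open purple) of the PBS (circles) and OVA (squares) libraries, at its distance in kb from the nearest coding start, with an asterisk where the peak covers a start. At Fgfr2, Fgfr4 and Etv5 the start peaks lay close together and several internal peaks lay apart, as at the Fgfr4 peak 11.1 kb downstream with 6 AT2 counts in each library.

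Between the libraries most members differed by less than the counting error could show. A member was called if it was at least 1.5-fold apart with an interval past equality and at least 50 UMIs over both libraries. The median of all genes lay 0.05 to 0.20 (log2) above 0, by type, and ratios of members are read beside that shift. Fgf10 in fibroblast-like nuclei had a log2 of OVA over PBS of 0.05 (-0.20 to 0.31), Fgfr2 in AT2-like nuclei 0.10 (-0.04 to 0.23) and Etv5 in AT2-like nuclei 0.19 (-0.05 to 0.44). For these 3 genes the intervals leave out a change of 1.5-fold or more between the libraries.

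At this rule 5 member and type pairs were called, all higher in the OVA library, and none of the 5 kept its call under every alternative. Spry1 in AT2-like nuclei went from 31 to 63 UMIs, a log2 of 0.84 (0.20 to 1.51), and was the 1 call among 4 members judged there, where 9.4% of all genes were called higher and 4.47% lower. With nuclei thinned to 500 UMIs it was 0.34 (-0.98 to 1.65) and no longer called. Spry2 in pericyte-like nuclei went from 7 to 45 UMIs, a log2 of 1.42 (0.26 to 2.82), where 9.42% of genes were called higher and 4.46% lower, and was not called with named clusters (0.82, -0.19 to 1.97), the lenient gate (0.82, -0.09 to 1.83), the strict gate (1.22, 0.05 to 2.62) or thinned nuclei (1.70, -0.44 to 4.89). Fgfr1 in the mast cell or basophil gate had a log2 of 0.65 (0.08 to 1.26), where 16.3% of genes were called higher and 7.34% lower, and ran from 0.36 (-0.22 to 0.99) with a stricter gate to 1.95 with thinned nuclei, and was also not called when centred on the median gene (0.52, -0.05 to 1.13).

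In fibroblast-like nuclei Fgfr1 had a log2 of 0.78 (0.30 to 1.28) and Fgfr4 one of 0.62 (0.28 to 0.99), 2 calls among 7 members judged, where 4.4% of genes were called higher and 3.63% lower. The gate was drawn from different clusters in the libraries. A cluster led by Cemip, C7 and Col25a1 gave 52.6% (PBS) and 84.1% (OVA) of the gate, and a cluster led by Wnt2, Bmp8a and Gja5 gave 31.5% and 5.9%. Within the gated nuclei of the first cluster Fgfr1 was 0.72 (0.14 to 1.37) and Fgfr4 0.73 (0.31 to 1.18). Within those of the second, Fgfr1 was 0.69 (-1.36 to 2.67) on 6 and 5 UMIs, and Fgfr4 was -0.29 (-1.69 to 0.97) on 19 and 8 UMIs. With named clusters in place of gates the ratios were 0.54 (0.18 to 0.92) and 0.34 (0.08 to 0.60), below 1.5-fold. Fgfr1 also lost its call with the lenient gate (0.37) and with thinned nuclei (0.91, -0.04 to 2.00), and Fgfr4 lost it with the lenient gate (0.50), the joint filter (0.53), ratios centred on the median gene (0.57) and thinned nuclei (0.57, -0.05 to 1.24). Fgf10 in the first cluster was at 359.8 and 357.3 CPM. The part of the clusters in these ratios was not tested beyond these values. No member was called in AT1-like, myofibroblast-like, macrophage-like or ILC2-like nuclei, where 1 member each could be judged and where 7.08%, 8.66%, 12.7% and 11.9% of all genes were called higher and 3.51%, 3.89%, 8.97% and 5.24% lower. These were Fgfr2 in the first 3 (log2 of 0.10, -0.29 to 0.49, -0.03, -0.89 to 0.90, and 0.74, -0.25 to 1.85) and Spry2 in ILC2-like nuclei (0.62, -0.42 to 1.82).

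Some members were lower in the OVA library under other settings only. Spry1 in fibroblast-like nuclei was at 40.5 CPM on 19 UMIs and 14.8 CPM on 26 UMIs, a log2 of -1.46 (-2.37 to -0.52), under the minimum of 50 UMIs over both libraries, and it was called lower with the lenient gate (-1.13, -1.94 to -0.31) and with a smaller minimum or none. Fgfr1 in ILC2-like nuclei, at -1.33 (-2.46 to -0.14) on 12 and 18 UMIs, was called lower with those minimums as well, but named clusters gave -0.50 (-1.37 to 0.42). Fgf7 in fibroblast-like nuclei was called lower with the strict gate (-0.69, -1.28 to -0.07) and Fgfr3 there with thinned nuclei (-0.83, -1.57 to -0.06). Fgfr3 in AT1-like nuclei was called lower with named clusters (-1.07, -1.77 to -0.38), and Fgf10 in AT2-like nuclei with no minimum, on 5 UMIs and none. Spry2 in ILC2-like nuclei was called higher with named clusters.

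**Figure D4:**
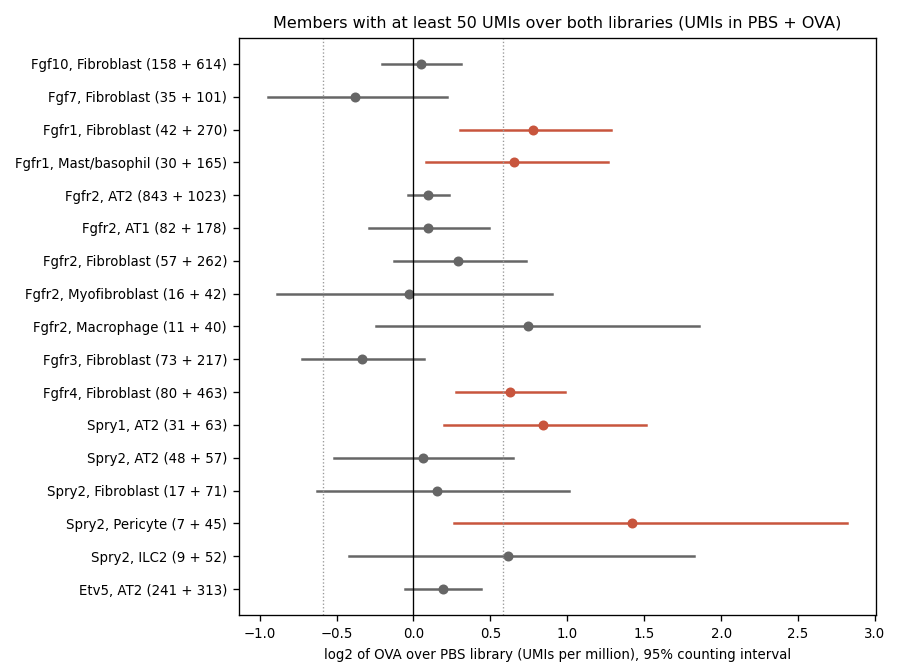
Log2 ratio of the OVA over the PBS library for each of the 17 member and type pairs with at least 50 UMIs over both libraries, with exact 95% counting intervals, a solid line at equality and dotted lines at 1.5-fold, and pairs past both limits in red. Fgf10 in fibroblasts sat at 0.05 and Fgfr2 in AT2 nuclei at 0.10, whereas the 5 red pairs all lay to the right.

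Of the other pathway genes, 34 could be judged between libraries in AT2-like, 30 in AT1-like, 40 in fibroblast-like and 7 in myofibroblast-like nuclei. Of these, 5, 1, 2 and 0 were called higher and 2, 2, 1 and 0 lower. The shares of all genes called higher were 9.4%, 7.08%, 4.4% and 8.66%, and lower 4.47%, 3.51%, 3.63% and 3.89%. No alternative setting is given for the calls of these genes. Medians of the other pathway genes were 0.17, 0.07, 0.02 and -0.15 (log2), beside 0.08, 0.08, 0.05 and 0.10 for all genes. In AT2-like nuclei the largest differences were those of Dusp6, a MAP kinase phosphatase gene of FGF feedback (1.54, 0.73 to 2.41, from 17 to 56 UMIs), Hs2st1, a heparan sulphate sulphotransferase gene (0.74, 0.44 to 1.03), and Sos2 (0.71, 0.29 to 1.13), a RAS exchange factor gene. Gpc6 (-2.13, -2.90 to -1.42) and Cbl (-0.85, -1.57 to -0.15) were lower. Gpc6, a glypican gene, was at 140.0 and 31.9 CPM in AT2-like nuclei, against 732 and 604 CPM in myofibroblast-like nuclei. In AT1-like nuclei Fgfbp1 (0.92, 0.06 to 1.89) was higher and Mapk3 (-0.92, -1.73 to -0.11) and Sdc1 (-0.67, -1.19 to -0.15) were lower. In fibroblast-like nuclei Fgf23 (1.87, 0.43 to 3.80, on 4 and 55 UMIs) and Hs2st1 (0.61, 0.11 to 1.15) were higher and Ndst1 (-0.65, -1.18 to -0.10) was lower.

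The genes with the most similar levels over the 7 types and both libraries (14 points that share libraries and depths, Pearson r of log2(CPM + 1) among 3935 or 3936 genes) are given as a description. For Fgf10 they were Cp (0.86), Vcam1 (0.84) and Abca8a (0.84), and for Fgfr4 Ryr3 (0.85), Mme (0.82) and Macf1 (0.82). Those for Fgfr2 were Eif4h (0.96), Cftr (0.93) and Retnla (0.93), and Etv5 had Lyz1 (0.94), Eif4h (0.88) and P4ha1 (0.88). Fgfr1 was most like Ltbp1 (0.93), Junb (0.91) and Syne1 (0.91), and Fgfr3 most like Smurf2 (0.82), Limch1 (0.82) and Osmr (0.80). Spry1 went with Sorcs2 (0.88), Meg3 (0.86) and Pls3 (0.86), and Spry2 with Msi2 (0.96), Pard3 (0.92) and Ube2e2 (0.91).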

How the data were processed

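Per the file headers and the submitters' processing notes, the authors made the deposited UMI counts of genes and transposition counts of peaks with Cell Ranger ARC 2.0.1 on mm10. The counts are raw, for called barcodes only, and peaks were called in each library separately. The adult and dexamethasone libraries were not analysed here.

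Nuclei were kept from 200 genes upwards, provided that mitochondrial UMIs made up no more than 60%. A nucleus was gated to 1 of 21 types with at least 3 distinct markers and a lead of 2 over any other type, from 218 marker genes in all. Nuclei with at least 3 markers in each of 2 compartments (236 PBS and 255 OVA) were left out as possible doublets, and no doublet caller was run. UMIs were summed per type and divided by all nuclear-gene UMIs (mitochondrial genes left out), so the depth of a type sets its precision. Intervals were exact Poisson for levels, Clopper-Pearson for shares and conditional binomial for ratios. Peaks were paired where exactly 1 OVA peak overlapped a PBS peak by at least 0.5 of the shorter.

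As an alternative to gates, kept nuclei other than those left out as possible doublets were clustered (scanpy 1.11.5, leidenalg 0.10.2, 3000 variable genes, 30 components, 15 neighbours, resolution 1.0, with the pathway genes left out). Clusters were named from the same markers. Other alternatives were a lenient gate (2 markers, lead of 1), a strict gate (4 markers), a joint filter on counts, other denominators, other minimums of UMIs and other peak windows. The members, markers and pathway lists were chosen with earlier results of these data known. Named genes are the 10 members and, of the pathway lists, up to 3 genes per type and direction by size of the ratio among those called.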

Additional observations from a re-analysis of the deposited data

Results flagged for a closer look

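Fgfr1 in the mast cell or basophil gate, which lies outside the 7 compared types, was above every compared type in both libraries. It had 952 CPM (643 to 1359) on 30 UMIs in 49 PBS nuclei, where the highest compared type had 135 CPM, and 1496 CPM (1276 to 1742) on 165 UMIs in 99 OVA nuclei, where the highest compared type had 162 CPM. The Fgfr1 start peak had 39.0 and 17.9 peak CPM in these nuclei, against 26.8 and 23.1 in fibroblast-like nuclei.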

How the results depend on the processing

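No paired analysis was possible because a group is 1 library, which also means that none could be left out. No RNA ratio between types changed sign under any of these settings. Among the settings listed first, 96 values stayed within the counting interval of the reported value, or within 1.5 times a count, and 15 did not. Mixed nuclei kept and nuclei thinned to 500 UMIs were chosen after seeing the data, and there 12 values stayed and 6 did not. As log2 ratios, the lenient gate gave 2.45 for Fgfr2 (epithelial over stromal), 5.64 for Fgf10 (stromal over epithelial) and 3.09 for Etv5 (AT2-like over AT1-like), all in the OVA library, and -2.96 for the OVA Fgf10 start window (epithelial over stromal). Named clusters gave 2.49 for Fgfr2 (OVA), 3.27 for Fgfr1 (PBS) and 2.21 and 2.70 for Etv5 (PBS and OVA). Keeping mixed nuclei gave 2.54 for Fgfr1 (OVA), 3.96 and 4.40 for Fgf10 (PBS and OVA) and 3.59 for Fgfr4 (OVA). All peaks of the body gave 0.44 for Fgfr2 accessibility (PBS), against -0.32 at the start, -0.46 there with the lenient gate and -0.40 with named clusters. Members past 1.5-fold between libraries numbered 2 in AT2-like nuclei with no minimum of UMIs (Spry1 higher, Fgf10 lower) and 0 with thinned nuclei (fewer UMIs by construction), against 1. In AT1-like nuclei they numbered 1 with named clusters (Fgfr3 lower), against 0. In fibroblast-like nuclei they numbered 1 with the joint filter or ratios centred on the median gene (Fgfr1 higher), 1 with the lenient gate (Spry1 lower), 1 with thinned nuclei (Fgfr3 lower) and 0 with named clusters, against 2 (Fgfr1 and Fgfr4 higher). Otherwise the cause was not tested. For Fgf10 in the PBS library no start peak had 200 counts, so that alternative gave no value. Depth limits Fgf18, Fgf7 and the myofibroblast-like and pericyte-like types most.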
